A study of Mus musculus with 4 samples.

Results

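Sparse Rad21 sites are described here: all peaks that lie in megabase windows where cohesin was called at few places. Peaks on chromosomes 1 to 19 were counted by their midpoint in fixed 1 Mb windows of the mouse build mm9 in each of 4 peak lists, and a window was kept if it held at least 1 peak in some list and a mean of at most 3 peaks over the 4 lists. This gave 503 of 2181 occupied windows (23.1%), which held 2878 of 90791 peaks (3.17%). Overlapping or touching peaks were joined across the lists, which gave 1329 sparse regions of 33900 regions (3.92%). No region had peaks in both a sparse and another window. The windows were chosen by their peak counts, so their low number of peaks is the rule itself and is given as a description.

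The data are Rad21 chromatin immunoprecipitation with sequencing (ChIP-seq) from v-Abl transformed pro-B cell lines, with 2 libraries of 53BP1 knockout cells and 2 of wild type (WT) cells. Both genotypes were RAG1 deficient and carried the Emu-Bcl2 transgene, and both received STI-571 at 3 uM over 4 days. The labels name neither clones nor separate cultures, so the spread between 2 libraries of a genotype may be technical, and each genotype may rest on a single line. Titles and the extraction protocol name Rad21 as the target, while the treatment field names a 53BP1 antibody; the titles are followed here.

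Cohesin, of which Rad21 is the kleisin subunit, is a ring-shaped complex that extrudes chromatin loops and comes to rest mainly where the zinc finger protein CTCF is bound. Cohesin is loaded mostly at active genes and enhancers, and chromosome segments poor in genes, often attached to the nuclear lamina and late to replicate, are known to carry few CTCF and cohesin sites. 53BP1 binds chromatin around DNA double-strand breaks and favours their repair by end joining. v-Abl is a viral kinase that immortalises B cell progenitors, STI-571 inhibits it and arrests the cells in G1, and Bcl2 keeps the arrested cells alive. V(D)J recombination begins with cuts by the RAG nuclease, of which RAG1 is the catalytic subunit, so these cells could not cut their antigen receptor genes.

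The autosomal lists held 24570 and 22228 peaks in knockout libraries and 21478 and 22515 peaks in WT libraries. Read depth is unknown, because peak lists hold no read counts. The second knockout library stood apart from the other 3: its median fold was 3.67, against 4.15 in the first knockout library and 4.09 and 4.05 in WT libraries, its median width was 566 bp, against 477 bp and against 515 and 511 bp, and the main results that it touches are given without it as well. Fold is the authors' ratio of a peak's signal to its background and was ranked within each list as a percentile, since lists differ in scale. No mm9 genome or gene annotation was used here, so the sites carry coordinates but no gene names and no sequence. Lists of known repeats or of artefact-prone segments were not used either.

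Sparse windows formed the low end of a broad distribution. The median occupied window of chromosomes 1 to 19 held a mean of 8.5 peaks. Of the 503 sparse windows, 220 had a mean of at most 1 peak, 151 a mean above 1 and up to 2, and 132 a mean above 2 and up to 3. The highest count of a sparse window in any list was 7. Just inside the limit, 28 windows had a mean of 3, with 135 regions of which 37.0% were called in all 4 lists and a median peak width of 435 bp. At the next possible mean above it there were 24 windows, with 129 regions of which 34.9% were called in all 4 lists and a median width of 450 bp. The limit thus cut a continuum.

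Windows chosen in one genotype were also poor in peaks in the other. By the same limit, 451 windows were chosen from the WT lists alone, and 408 of them were among the 503. They held a mean of 1.96 knockout peaks and 1.65 WT peaks, while the knockout mean over all occupied windows was 10.7. In 384 of the 451 windows (85.1%) the knockout mean was also at most 3, and the highest knockout mean was 9. The 479 windows chosen from the knockout lists alone held a mean of 1.54 knockout peaks and 1.47 WT peaks, while the WT mean over all occupied windows was 10.1. In 448 of these 479 windows (93.5%) the WT mean was at most 3. Low occupancy was thus shared by both genotypes in most of these windows.

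Sparse windows lay mostly alone or in short runs. The 503 windows formed 355 runs, of which 243 were single windows, 84 were pairs, 22 were runs of 3 windows, 4 of 4 and 2 of 5. Windows in runs of 2 or more made up 51.7% of all sparse windows. The occupied windows beside a sparse window had a median of 5.5 peaks, against 10.25 for those beside other windows, so sparse windows tended to lie in wider territory of low peak count. A sparse window bordered on a window without any peak in 145 of 503 cases (28.8%), against 155 of 1678 other windows (9.24%). In all, 243 windows between the first and the last occupied window of their chromosome had no peak in any list, and 132 of them touched a sparse window. Whether such windows hold assembly gaps or sequence to which reads cannot be placed was not tested.

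**Figure D1:**
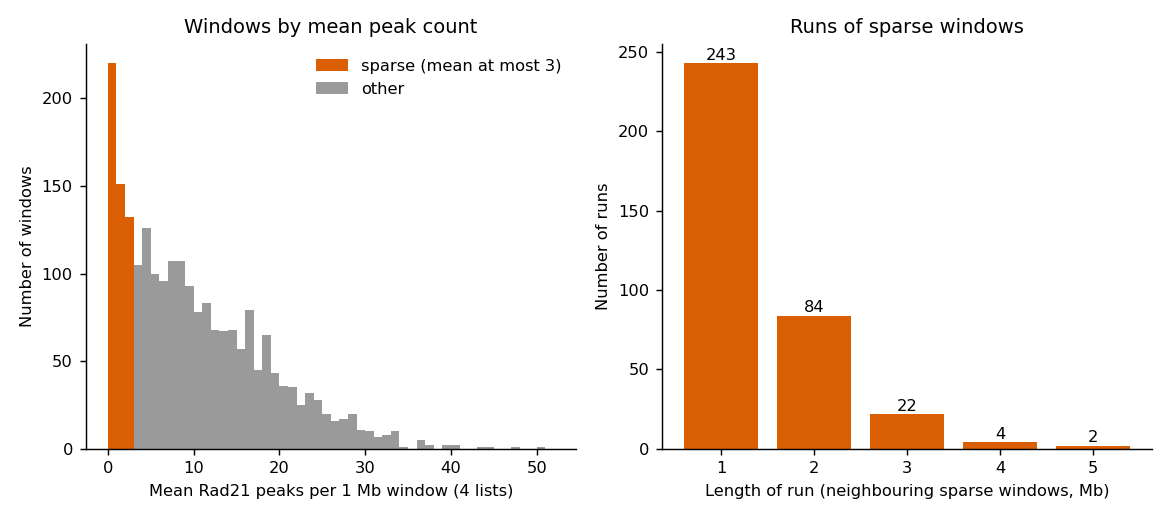
Left, number of 1 Mb windows (y axis) by mean number of Rad21 peaks over the 4 lists (x axis, bins of 1 peak), with the 503 sparse windows in orange and the 1678 other windows in grey. Right, number of runs of neighbouring sparse windows (y axis) by run length in Mb (x axis): 243 windows stand alone and the longest runs span 5 windows.

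The longest runs held a handful of sites each. The run on chromosome 14 from 3 to 8 Mb held 5 and 2 peaks in knockout libraries and 2 and 3 peaks in WT libraries, a mean of 0.6 peaks per window, and 1 of its 6 regions was called in all 4 lists. This run starts at the first occupied megabase of the chromosome. The run on chromosome 14 from 81 to 86 Mb held 4 and 15 peaks in knockout libraries and 5 and 6 peaks in WT libraries, so the second knockout library stood above the other 3. On chromosome 3 from 23 to 27 Mb the same library again stood out, with 2 and 11 peaks in knockout libraries and 2 and 3 peaks in WT libraries. The run on chromosome 4 from 75 to 79 Mb held 4 and 5 peaks in knockout libraries and 3 and 5 in WT libraries, and the run on chromosome 16 from 71 to 75 Mb held 6 and 2 peaks in knockout libraries and 5 and 5 in WT libraries. In both of these the counts of the genotypes overlapped.

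Counting empty windows as part of a run gave longer stretches, a description added after the values were seen. There were 359 such stretches, with a median length of 2 Mb, and 26 of them spanned 5 Mb or more. The longest was chromosome 15 from 16 to 27 Mb, with 7 sparse and 4 empty windows. Over these 11 Mb the knockout libraries held 6 and 9 peaks and the WT libraries 7 and 8 peaks. In the 13 regions of that stretch, 3 were called in all 4 lists. On chromosome 12 from 61 to 70 Mb, 7 of 9 windows were empty, and 4 of the 5 regions in the remaining 2 windows were called in all 4 lists.

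Chromosomes differed in the share of their occupied windows that was sparse. The highest shares of occupied windows that were sparse were on chromosomes 14 (30.9%), 3 (30.2%), 4 (28.4%), 16 (27.5%) and 8 (26.9%). The lowest were on chromosomes 19 (13.8%), 11 (14.4%), 12 (18.6%), 9 (18.6%) and 18 (19.5%). Empty windows are left out of these shares, so they are not shares of chromosome length. Chromosome 12 had 22 empty windows, chromosome 16 had 5 and chromosome 19 had 1. Chromosomes 11 and 19 are known as gene-rich mouse chromosomes. Windows of a chromosome are neighbours and were not treated as replicates, so these shares carry no test.

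Sites in sparse windows were far apart. The median distance to the nearest other region was 69.9 kb in sparse windows, against 12.2 kb elsewhere, and 59.3% of sparse regions had another region within 100 kb, against 97.1% of the others. A neighbour within 10 kb was found for 14.7% of sparse regions, against 42.8% of the others. These distances follow from the rule. Within sparse windows, 123 of the 541 regions with no neighbour within 100 kb were called in all 4 lists (22.7%), against 26.9% of the 788 regions that had such a neighbour.

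Fewer sparse sites than other sites were called in every library. Of 1329 sparse regions, 335 were called in all 4 lists (25.2%, 95% Wilson interval 22.9 to 27.6%), against 42.5% of 32571 regions in other windows and a background of 41.8% over all autosomal regions. A single list called 618 sparse regions (46.5%, interval 43.8 to 49.2%), against 30.0% in other windows and a background of 30.6%. Regions of the second knockout library alone made up 20.4% in sparse windows and 8.58% in others, those of the first knockout library alone 11.8% and 10.8%, those of the first WT library 4.59% and 4.61% and those of the second WT library 9.71% and 5.93%. The gap between sparse and other windows was thus widest for the second knockout library, but which regions count as single-list depends on the lists present. When the peaks of that library were left out, 43.9% of 1063 sparse regions and 30.7% of the others were called by a single list, so an excess remained without it. Regions of 2 lists made up 16.6% in sparse windows and 13.9% in others, and regions of 3 lists 11.7% and 13.6%. The intervals cover counting error only, and a window with few calls in 4 lists is by its choice less likely to hold regions called 4 times, so this difference was given no test. When peaks below a fold of 4 were left out, the gap in the share called in all lists was −4.88 percentage points, against −17.3 with all peaks, and it was −9.48 points when a list had to cover at least 50% of a region. The fixed fold removes more of the second knockout list, in which folds were lower. It thus limits calls in all 4 lists in sparse and other windows alike. Without the second knockout library the gap in regions called in all remaining lists was −14.9 points.

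**Figure D2:**
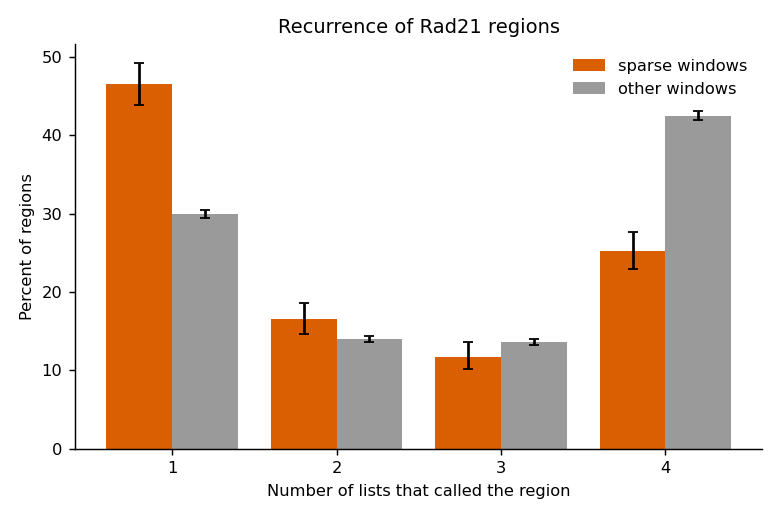
Percent of merged Rad21 regions (y axis) called in 1, 2, 3 or 4 lists (x axis), for 1329 regions of sparse windows in orange and 32571 regions of other windows in grey. Error bars are 95% Wilson intervals, and the share of regions in all 4 lists is 25.2% in sparse windows and 42.5% in other windows.

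Seen by window, recurrent sites were spread over many of the sparse windows. At least 1 region called in all 4 lists lay in 253 of 503 sparse windows (50.3%). In 25 windows the only region was such a site. In contrast, 110 windows held no region that more than 1 list called, and 67 of these held just 1 peak in 1 list. That lone peak came from the first knockout library in 14 windows, from the second knockout library in 37, from the first WT library in 8 and from the second WT library in 8. The second knockout library thus supplied more of the lone peaks than the other 3 libraries together.

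The lower recurrence was also seen among peaks of equal fold rank. Peaks of each list were divided into 5 equal groups by their fold, from lowest to highest. In the highest group, 83.1% and 58.7% of sparse peaks in knockout libraries and 77.8% and 78.2% in WT libraries lay in a region of all 4 lists. The corresponding shares of peaks in other windows were 91.6% and 84.0% in knockout libraries and 90.1% and 91.2% in WT libraries. In the middle group the mean over the 4 libraries was 41.2% in sparse windows and 62.8% in other windows. Over 20 combinations of library and fold group, the share was lower in sparse windows in 19, and the exception was the lowest group of the first WT library, with 44.4% in sparse and 44.1% in other windows. Without the second knockout library, the mean share in all 3 remaining lists was 55.7% in sparse and 72.0% in other windows for the middle group, and it was lower in sparse windows in 15 of 15 combinations. The difference was thus present at nearly every fold rank. As the rule used the counts themselves, it carries no test here either.

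Recurrence rose with the number of peaks in a window on either side of the limit. Windows with a mean of up to 1 peak had 7.34% of their 327 regions in all 4 lists, windows above 1 and up to 2 had 28.8% of 427, and windows above 2 and up to 3 had 32.7% of 575. Beyond the limit the share was 35.3% for windows up to 5 peaks, 38.0% up to 10, 42.7% up to 20 and 45.8% above 20.

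Peaks in sparse windows were narrower than peaks elsewhere in every library. Their median width was 393 and 453.5 bp in knockout libraries and 460 and 446.5 bp in WT libraries. In other windows the medians were 480 and 570 bp in knockout libraries and 517 and 513 bp in WT libraries. The difference averaged −81.8 bp ± 26.3 (SD over 4 libraries), with values of −87 and −116.5 bp in knockout and −57 and −66.5 bp in WT libraries. All 4 libraries had the same direction, and an exact sign-flip permutation over the 4 libraries gave a two-sided p of 0.13, the lowest it can give. Width differed with recurrence, which depends on the counts that the rule used. Over the libraries, median widths of sparse peaks were 225 to 353 bp in single-list regions and 471 to 551 bp in regions of all 4 lists. The p of the width difference is thus not independent of the rule. Sparse peaks ranged from 204 to 1614 bp and from 237 to 2686 bp in knockout libraries, and from 203 to 2000 bp and from 196 to 1827 bp in WT libraries.

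Width rose with window density in all 4 libraries. In windows with a mean of up to 1 peak the medians were 309.5 and 400 bp in knockout libraries and 397 and 371 bp in WT libraries. In windows with more than 20 peaks they were 496.5 and 586 bp in knockout libraries and 536 and 522 bp in WT libraries. At equal fold rank, sparse peaks were narrower in 18 of 20 combinations of library and fold group. The mean difference was −8.5 bp in the lowest group, −97.1 bp in the middle group and −94.0 bp in the highest group, and both exceptions were WT libraries in the lowest group.

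**Figure D3:**
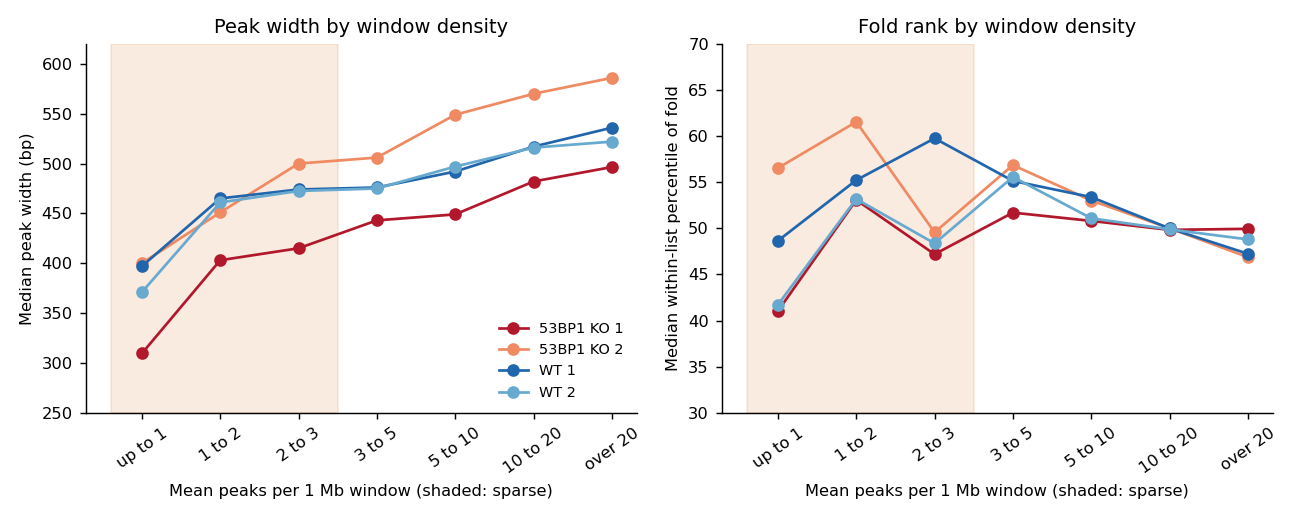
Median peak width in bp (left y axis) and median within-list percentile of fold (right y axis) by mean number of peaks per 1 Mb window (x axis), with a line for each of the 4 libraries and the sparse windows shaded. Widths rise from 309.5 to 400 bp in the emptiest windows to 496.5 to 586 bp in the densest, while fold percentiles of the densest windows lie between 46.9 and 49.9. The y axes do not start at 0.

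By fold rank, sparse peaks lay on either side of the peaks elsewhere. Their median percentile was 47.3 and 54.6 in knockout libraries and 55.9 and 48.3 in WT libraries, against 50.1 and 49.8 in knockout and 49.8 and 50.04 in WT libraries for peaks of other windows. The difference averaged 1.59 percentile points ± 4.49 (SD over 4 libraries), with 2 libraries on each side of 0 and an exact sign-flip permutation p of 0.5, and it was 0.508 points without the second knockout library. The difference was thus smaller than its spread between libraries. Median −log10 q was lower in sparse windows in each library, 2.55 and 2.29 in knockout and 3.03 and 2.75 in WT libraries, against 3.04 and 2.76 in knockout and 3.26 and 3.245 in WT libraries elsewhere.

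Compared within classes of equal recurrence, sparse peaks ranked higher by fold. Among regions of all 4 lists, the median percentile was 68.1 and 68.2 in knockout and 68.0 and 67.3 in WT libraries for sparse peaks. For such peaks of other windows it was 66.2 and 58.3 in knockout and 60.3 and 62.4 in WT libraries. The mean difference was 6.08 points ± 3.51 for regions of 4 lists, 9.79 ± 5.64 for 3 lists, 11.7 ± 4.66 for 2 lists and 8.31 ± 5.32 for a single list (SD over 4 libraries), positive in 4 of 4 libraries in each class. The exact sign-flip p was 0.13 for each class, the lowest possible. Recurrence depends on the counts that the rule used, so this p is no separate support. Higher fold rank at equal recurrence in part restates the lower recurrence at equal fold rank. Sparse peaks in regions of all 4 lists were narrower than such peaks elsewhere, with a mean difference of −79.6 bp and the same direction in 4 of 4 libraries. In regions of 3 lists they were wider by 24.3 bp, also in 4 of 4 libraries, and in regions of 1 or 2 lists the direction differed between libraries. Narrower width thus held for the most recurrent sites and not for every class.

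**Figure D4:**
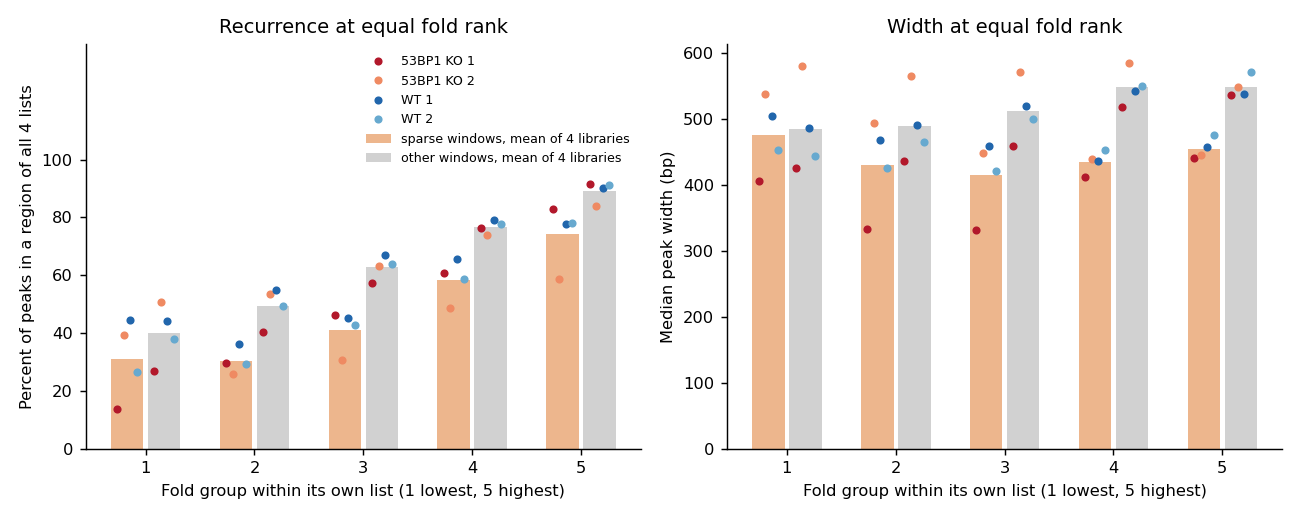
Percent of peaks that lie in a region of all 4 lists (left y axis) and median peak width in bp (right y axis) by fold group within the peak's own list (x axis, 5 groups from lowest to highest), for sparse windows in orange and other windows in grey. Bars are means of the 4 libraries and dots are single libraries: in the highest group 74.4% of sparse peaks and 89.2% of other peaks were in all 4 lists.

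Sites of high rank in every list occurred in sparse windows as well. Of the 335 sparse regions in all 4 lists, 11 (3.28%) lay above percentile 90 of fold in every list, against 382 of 13849 (2.76%) in other windows. A −log10 q of at least 5 in every list was reached by 36 sparse regions (10.7%) and by 16.6% of the others. Over all regions called in all 4 lists, the merged length had a median of 822 bp in sparse windows, against 925 bp elsewhere.

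By the lowest of its 4 fold percentiles, the leading site was chr4:152527052-152527410. Its folds were 6.47 and 11.6 in knockout libraries and 7.94 and 7.93 in WT libraries, and its peaks were narrow, 224 and 359 bp wide in knockout and 257 and 254 bp in WT libraries. The fold in the second knockout library was the highest of any sparse peak in that list. The next was chr4:75359770-75360456, inside the run from 75 to 79 Mb, with folds of 6.61 and 5.47 in knockout and 6.08 and 5.99 in WT libraries. chr16:60435011-60435861 had folds of 8.07 and 5.07 in knockout and 7.01 and 5.76 in WT libraries. In these 3 sites all percentiles were 95.7 or more.

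Further sites of this rank lay on chromosomes 2, 13, 3 and 4. chr2:86304355-86305748 had folds of 8.16 and 4.95 in knockout and 7.72 and 7.73 in WT libraries. chr13:84897781-84898536 had folds of 7.07 and 5.01 in knockout and 5.82 and 5.60 in WT libraries, and its nearest region lay 394 kb away. chr3:74940106-74940679 was in a window with a mean of 1 peak, and it had folds of 6.57 and 5.28 in knockout and 5.61 and 5.61 in WT libraries. chr2:134498975-134499869 and chr4:37507009-37508222 complete the 8 sites named by this rule, with lowest percentiles of 93.2 and 92.4. In 7 of the 8 sites the second knockout library had the lowest fold, a list in which the median fold was lower as well.

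The widest recurrent sites ranked low by fold in at least 1 list each. chr7:70896871-70898928 had widths of 810 and 1864 bp in knockout and 1987 and 1827 bp in WT libraries. Its folds were 3.88 and 3.28 in knockout and 3.37 and 3.19 in WT libraries. chr10:34046195-34048506 had widths of 1614 and 2306 bp in knockout and 1932 and 640 bp in WT libraries, with folds from 2.92 to 3.60. chr1:159006407-159007654, chr8:56206164-56207620 and chr2:77886288-77887634 followed, with median widths of 1174, 1124 and 1120 bp. In these 5 sites the lowest percentile of fold was 20.7 or less, while the last of them reached percentile 65.7 in the second knockout list.

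Between the genotypes, knockout libraries held more peaks in sparse windows. The counts were 738 and 818 peaks in knockout and 606 and 716 peaks in WT libraries, a mean of 778 ± 56.6 against 661 ± 77.8 (SD, n = 2 each), so the groups did not overlap. The difference was 117 peaks or 1.18-fold. The rule used these same counts, so the difference is given with no test. As a share of each list, sparse windows took 3.00% and 3.68% of peaks in knockout and 2.82% and 3.18% in WT libraries. The difference was 0.341 percentage points, and the groups overlapped. Leaving out a library changed these values: without the second knockout library the difference was 77 peaks and 0.00287 points, without the first WT library 62 peaks and 0.162 points, and without the first knockout library 157 peaks and 0.679 points. Without the second WT library it was 172 peaks and 0.520 points.

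The difference in number changed with the peaks counted and with the choice of windows. It was −0.5 peaks when peaks below a −log10 q of 2 were left out and −22 peaks when those below a fold of 4 were left out. A fixed fold removes more of the second knockout list, in which folds were lower, and as a share of the remaining peaks the difference at that fold was 0.455 points. Without peaks below a −log10 q of 2 the share differed by 0.0331 points. When every list was shortened to the length of the shortest, it was 43.5 peaks. In windows chosen from the knockout lists alone it was 33 peaks, and the difference of shares was −0.0330 points. In windows chosen from the WT lists alone it was 137.5 peaks, with a difference of shares of 0.405 points. Choosing windows by low counts in one genotype in itself favours higher counts in the other. Within the name prefixes that the lists of one replicate number share, knockout minus WT was 132 peaks for replicate 1 and 102 for replicate 2. The prefix may mark a batch, which the labels do not say.

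The second knockout library held many sparse peaks that no other list called. These numbered 271 in that library, or 33.1% of its sparse peaks, and 157 in the first knockout library, against 61 and 129 in WT libraries. In other windows the second knockout list had 13.0% of peaks to itself. Of its 271 own regions, 72 lay on chromosomes 5 and 10 (26.6%), where the first knockout library had 14 and the WT libraries 1 and 13. Sparse windows on these 2 chromosomes, 53 in number, held 69 and 131 peaks in knockout and 49 and 70 peaks in WT libraries. On the other 17 chromosomes the counts were 669 and 687 in knockout and 557 and 646 in WT libraries. The groups did not overlap, but these counts were not adjusted for list length. Without chromosomes 5 and 10 the difference between genotypes was 76.5 peaks, or 0.259 percentage points as a share of the remaining peaks. The knockout mean was above the WT mean on 17 of 19 chromosomes, the first knockout library alone was above it on 15, and both knockout counts exceeded both WT counts on 5. These are counts of peaks, and the first knockout list was the longest. Its share of peaks in sparse windows was 3.00% and that of the second knockout list 3.68%, against a WT mean of 3.00%.

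**Figure D5:**
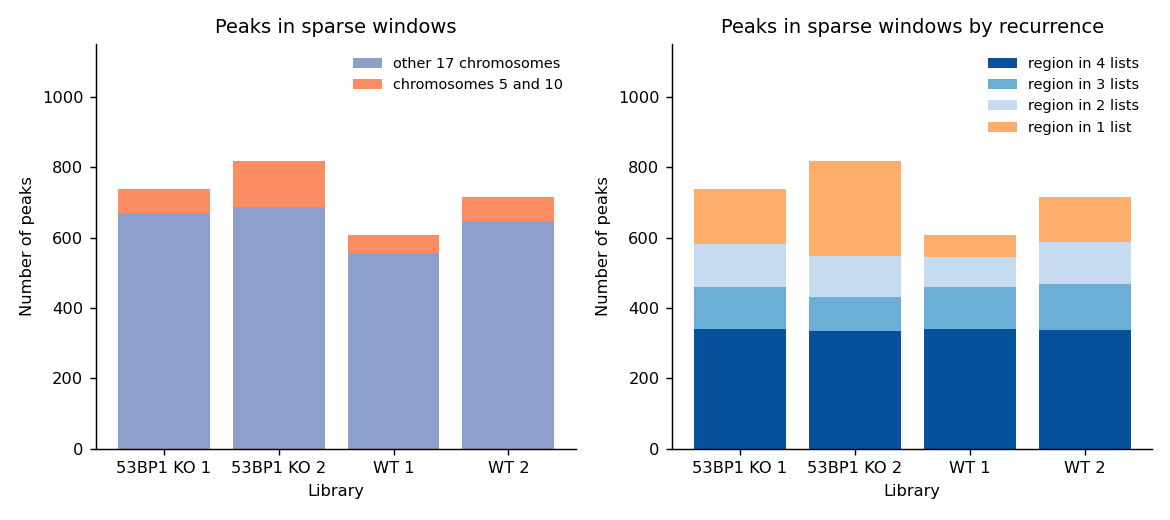
Number of peaks in sparse windows (y axis) in each library (x axis). Left, chromosomes 5 and 10 in orange on top of the other 17 chromosomes in blue. Right, the same peaks by the number of lists that called their region. The second knockout library carries 131 peaks on chromosomes 5 and 10 and 271 peaks that no other list called.

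Few sparse sites followed genotype. Both knockout lists and neither WT list called 53 sparse regions, termed knockout-specific here (3.99%, Wilson interval 3.06 to 5.18%), against a background of 3.02% over all autosomal regions. Both WT lists and neither knockout list called 35, termed WT-specific (2.63%, interval 1.90 to 3.64%), against a background of 2.19%. The background lies just below the interval for the knockout and inside it for WT. These intervals cover counting error over regions and not the spread between libraries, so they cannot test a difference between genotypes. The 4 pairs that mix a knockout and a WT library called 23, 46, 26 and 37 sparse regions of their own, so 35 lay inside and 53 above their range. With lists of equal length the knockout-specific and WT-specific counts were 35 and 42, and without peaks below a fold of 4 they were 11 and 31, so the direction turned. A fixed fold removes more of the second knockout list, in which folds were lower. It thus leaves fewer regions that both knockout lists can call, and the counts at that fold are no measure of genotype.

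Genotype-specific sites ranked lower by fold than sites of all 4 lists, as did sparse sites of any 2 lists. The median fold percentile of the knockout-specific regions was 32.9 and 49.7 in the knockout lists, that of the WT-specific regions was 43.2 and 31.6 in the WT lists, and that of sparse regions of all 4 lists was 67.5 to 68.3. Over all sparse regions of 2 lists, whichever they were, it was 36.2 and 49.1 in knockout and 45.3 and 37.7 in WT lists. By the lower of its folds the leading knockout-specific site was chr12:121045829-121046677 (folds 5.86 and 5.60). The next in rank were chr17:38699324-38699845 (4.71 and 4.38) and chr3:26732496-26733904 (6.23 and 4.29), the last inside the run from 23 to 27 Mb. chr9:101084349-101084681 (4.12 and 4.74) and chr7:62101137-62101577 (4.07 and 4.11) came next. No WT list had a peak at these 5 sites.

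The leading WT-specific site was chr10:114843452-114843928, with folds of 4.49 and 5.53 in WT lists. chr6:126905771-126906040 (4.33 and 4.67), chr3:61047989-61048450 (4.23 and 4.47), chr1:56810125-56810476 (4.83 and 4.10) and chr6:10644314-10644697 (4.08 and 4.10) followed, and no knockout list had a peak at them. Strong peaks of a single list also occurred. The one with the highest rank was chr1:69503236-69503544, with a fold of 7.03 and percentile 99.8 in the second knockout list. In the other lists the leading such peaks were chr15:90773578-90773811 (fold 5.17, first knockout list), chr2:108005402-108005608 (5.80, first WT list) and chr1:84963327-84963530 (5.33, second WT list). These 3 were narrow, with widths of 234, 207 and 204 bp.

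By window, both knockout counts lay above both WT counts in 47 of 503 sparse windows (9.34%), against a background of 17.4% of all occupied windows. Both knockout counts lay below both WT counts in 18 (3.58%), against a background of 5.23%. Low counts tie often, so fewer separated windows follow from the rule. The gap was 1 peak in 40 of the 47 and in 16 of the 18. The 5 windows above WT that are named by rule had a gap of 2. The megabase of chromosome 1 that starts at 147 Mb held 3 and 5 peaks in knockout and 1 and 1 in WT libraries. Those that start at 21 Mb on chromosome 2 and at 117 Mb on chromosome 9 each held 4 and 4 in knockout and 2 and 2 in WT libraries. The one from 79 Mb on chromosome 5 held 2 and 6 peaks in knockout and none in WT libraries, and the one from 29 Mb on chromosome 10 held 2 and 5 in knockout and none in WT libraries. These last 2 lie on the chromosomes where the second knockout library held more peaks.

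Both windows with a gap of 2 below WT lay elsewhere. From 84 Mb on chromosome 1, knockout libraries held 1 and 1 peaks and WT libraries 3 and 3, and from 17 Mb on chromosome 3, knockout libraries held 0 and 1 peaks and WT libraries 3 and 3. Windows with a peak in both knockout lists and in neither WT list numbered 20, and windows with a peak in both WT lists and in neither knockout list numbered 2. No other occupied window had this pattern, so the background is 0.917% and 0.0917% of all occupied windows, against 3.98% and 0.398% of the sparse ones. A window with no peak in either list of a genotype seldom has a mean above 3. The rule thus nearly confines the pattern to sparse windows, and the contrast with the background follows from it. In lists of equal length the windows numbered 27 above and 29 below WT, and without peaks below a −log10 q of 2 they numbered 21 and 35.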

How the data were processed

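Rad21 ChIP-seq was analysed in 4 libraries, grouped by the genotype in their titles. Per the submitters' processing notes, reads were handled for build mm9 with tools that include MACS2 2.2.7.1 and Bowtie2 2.4.4. Their parameters, and any input control, are not stated in the labels. Each library has its own deposited list of 9 columns. In it the authors deposited, per peak, a fold or ratio of signal over background, a −log10 p, a −log10 q, and a score that was checked to lie within 1 of 10 times the −log10 q. The lowest −log10 q was 1.01 to 1.02.

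Windows, merged regions (overlap of at least 1 bp, or touching), percentiles of fold within the autosomal peaks of a list and exact sign-flip permutation tests over the 4 libraries were computed in Python 3.11.15 with pandas 2.3.3 and NumPy 2.4.6, and Wilson intervals with SciPy 1.17.1. The window count, recurrence, width difference and permutation steps were tested on simulated data. Libraries, not peaks, were the replicates. Between the genotypes, 2 against 2 libraries allow no permutation p under 0.33, and differences are described. Coordinates are 1-based, with windows given in Mb. Chromosome X and the mitochondrial sequence were left out. Members, rules and comparisons were chosen with earlier results of these data known.

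Named sites followed rules: the 5 longest runs, the 8 strongest and 5 widest regions of all 4 lists, up to 5 regions and windows per genotype direction, and the strongest peak called by a single list. Of the windows lower in knockout libraries, the 2 with a gap of 2 are printed. Replicate differences of sparse-window counts had a correlation of −0.00741 between genotypes over 503 windows. Low counts tie often, so this value cannot tell whether replicate numbers mark a batch. Replicate numbers were not treated as pairing libraries, and differences within them are given beside the unpaired ones.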

Additional observations from a re-analysis of the deposited data

How the results depend on the processing

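Of 75 values recomputed under other settings, not counting the omission of libraries, 22 left the spread of the libraries or the counting interval or, as counts, changed by over 1.5 times. The omission of chromosomes 5 and 10 was decided after seeing the data for recurrence, width, fold rank and the counts of regions and windows that followed genotype, as was that of the second knockout library from the single-list share, the fold groups and the chromosome count. Without these chromosomes none of the recomputed values moved. The median width difference stayed between −105.25 and −70.1 bp under every setting run. Without peaks below a −log10 q of 2, the genotypes differed by −0.5 peaks, with a fold percentile difference between sparse and other windows of 7.34 points, 22 knockout-specific regions, and 21 windows above and 35 below WT. Without peaks below a fold of 4 the difference between genotypes was −22 peaks, with −4.88 points for the share in all 4 lists, 11 knockout-specific regions and 9 windows higher. With the same 21478 peaks from every list they were 43.5 peaks, 35 knockout-specific regions, and 27 windows higher and 29 lower. A limit of a mean of 2 gave −22.9 points for the share in all 4 lists, 32 knockout-specific regions, and 30 windows higher and 10 lower, and a limit of 4 gave −14.4 points and 61 WT-specific regions. Requiring 50% cover gave −9.48 points and 56 WT-specific regions, and windows chosen from the knockout lists alone gave 33 peaks. Fewer windows or peaks enter under the stricter settings by construction, and a fixed fold removes more of the second knockout list than of the others. Otherwise the cause was not tested.

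Leaving out a library at a time gave 62 to 172 peaks of difference, shares from 0.00287 to 0.679 points, −18.7 to −14.9 points for the share in all lists, 0.107 to 3.06 points for the fold percentile, 79 to 324 knockout-specific regions, 72 to 168 WT-specific regions, 69 to 157 windows higher and 46 to 68 lower, the counts being larger because fewer lists have to satisfy the rule. In the replicate block, knockout minus WT within replicate numbers averaged 117 peaks and 0.341 points, which equals the unpaired difference by construction. Unknown read depth and lists with a lowest −log10 q near 1 limit what can be said of sites called by a single list.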
